A study of Mus musculus with 6 samples.

Results

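Chemokine receptors are the G protein-coupled receptors with which leukocytes read chemokines, and 9 of them were followed here in macrophages that had been grown from mouse bone marrow (BMDMs). The members were taken by symbol and were *Ccr1*, *Ccr2*, *Ccr3*, *Ccr7*, *Ccrl2*, *Cx3cr1*, *Cxcr4*, *Cxcr2* and *Ackr3*, 9 of the 55335 gene identifiers in the table. Each symbol matched 1 identifier. FPKM counts fragments per kilobase of transcript, set against the library total. Of the 9, 7 averaged 0.5 FPKM or more across all libraries and were tested, and *Ackr3* and *Ccr7* lay under this filter and are given by their values alone.

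The 6 RNA-seq libraries form 2 groups of 3. In both groups the BMDMs came from *Cd177* WT mice: marrow cells were kept for 7 days in 25 ng/ml M-CSF and then cultured for 24 h with neutrophils that had been taken from the spinal cord lesion by MACS at 3 days post-injury (dpi). The neutrophil donors were *Cd177* WT mice in the WT group and *Cd177* KO mice (*Cd177*-/-, not restricted to a cell type) in the KO group. The animals of the study were male, its wild-type stock was adult C57BL/6 mice of 8 weeks, and no separate age is given in the sources used here for the *Cd177*-/- donors. Thus the groups differ by the genotype of the neutrophils and not of the sequenced cells. Macrophages were recovered as Ly6G- cells by FACS and their total RNA was extracted. A culture without neutrophils is not part of these libraries, and no source used here says whether the 3 replicates of a group are separate cultures or separate donor mice. The p-values therefore measure the spread between these libraries, which may be technical.

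The implied depth was 17600000 to 20200000 fragments per library. Across the tested genes, Pearson correlations were 0.967 to 0.985 within groups and 0.905 to 0.917 between them. *Cd177* itself had 0.309 to 0.544 FPKM in the WT libraries and 1.79 to 2.28 FPKM in the KO libraries, which goes against the group labels. The BMDMs of both groups were themselves *Cd177* WT. Which cells gave these *Cd177* reads, and whether the labels match the neutrophils a culture received, was not tested. Every direction below is that of the libraries labelled KO against the libraries labelled WT. The cells carried the macrophage markers fixed for the check in both groups: all 12 were above the filter, 3 higher, 2 lower and 7 not called, with a summed level of 6989 to 8347 FPKM in WT-labelled libraries and 7744 to 8472 FPKM in KO-labelled ones. *Lyz2*, lysozyme, made up most of these sums, with means of 4922 and 6144 FPKM, and single markers differed far more than the sum. The lipopolysaccharide co-receptor *Cd14* fell from 1009.5 ± 150.1 to 99.4 ± 8.39 FPKM and the Fc receptor *Fcgr1* from 121 ± 2.67 to 33.8 ± 0.714 FPKM, while the mannose receptor *Mrc1* rose from 28 ± 1.6 to 221 ± 6.46 FPKM (SD, n = 3 each). In bulk RNA, fewer cells of a type and less RNA per cell cannot be told apart.

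Conventional chemokine receptors signal through inhibitory G proteins to the small GTPases and kinases that polarise and move a cell, and are then phosphorylated by G protein-coupled receptor kinases and bound by arrestins. Atypical receptors bind a ligand without this signalling and remove or present it. In monocytes and macrophages CCR2 is known for recruitment from marrow and blood into injured tissue, CCR1 for the response to inflammatory CC chemokines, CXCR4 for retention by CXCL12 and CX3CR1 for resident and patrolling cells.

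*Ccr1* and *Ccr3* lie close together in a receptor cluster of mouse chromosome 9, and *Ccr1* was called lower and *Ccr3* was not called in the comparison below. Their promoters are shown for that reason, as the 250 bases before the RefSeq start site of each gene (GRCm38.p6, written 5′ to 3′ on the gene's strand). The windows are chr9:123968693-123968942 on the minus strand for *Ccr1* and chr9:124021721-124021970 on the plus strand for *Ccr3*. Capitals mark matches to the searched motifs named after the sequences.
Ccr1: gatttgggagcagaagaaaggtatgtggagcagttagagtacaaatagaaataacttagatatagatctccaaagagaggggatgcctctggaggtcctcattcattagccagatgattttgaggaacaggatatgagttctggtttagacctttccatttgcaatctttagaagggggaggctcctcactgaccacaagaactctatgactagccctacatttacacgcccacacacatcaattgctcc
Ccr3: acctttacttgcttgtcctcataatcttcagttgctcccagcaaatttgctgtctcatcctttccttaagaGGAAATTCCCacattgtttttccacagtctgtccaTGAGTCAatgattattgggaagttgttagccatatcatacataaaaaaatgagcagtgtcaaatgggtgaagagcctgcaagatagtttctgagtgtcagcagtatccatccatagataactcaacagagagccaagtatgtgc
The RefSeq start of *Ccr2*, the next gene of the cluster, lies 233 bases inside the span that GENCODE M21 gives the gene, so its window is mostly within the gene and is not shown. The RefSeq start of *Cx3cr1* lies 1583 bases inside its span, and those of 2 of the 3 *Ccrl2* windows lie 249 and 275 bases inside theirs.
Over the full windows, which run on for 50 bases after the start, the letters GAGGAAG (PU.1), GGG with any 2 letters and TTTCC (NF-kB), GAAA with any 2 letters and GAAA (interferon-stimulated response element), TGANTCA (AP-1) and TTGCNNCAA (C/EBP) were searched on both strands. *Ccr3* held a match to NF-kB from position -179, read on the minus strand, and a match to AP-1 from position -144, and the matches do not overlap. Of all 32851 RefSeq promoter windows of this length, 1.63% held the NF-kB letters and 7.81% the AP-1 letters. The windows of *Ccr1* and *Ccr2* held none of the 5. Of the other members *Ackr3* held the C/EBP letters at position 29 after the start, which 2.08% of all windows hold. PU.1 letters, found in 13.6% of all windows, and interferon element letters, found in 3.44%, were in none of the 10 windows of the 8 members that have one. The windows of *Ccr1*, *Ccr3* and *Ccr2* are poor in CpG, with 1 CpG each, while the *Cxcr4* window has 20 and the median window 7.

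Of the 7 tested members, 2 were higher in the libraries labelled KO (*Ccr2* and *Cxcr2*), 3 were lower (*Ccr1*, *Ccrl2* and *Cxcr4*) and 2 did not pass the test (*Ccr3* and *Cx3cr1*), by limma on log2(FPKM + 0.5) with Benjamini-Hochberg adjustment over all 13367 tested genes and a threshold of 0.05. Over all tested genes 37.6% were called, 27.1% higher and 10.5% lower. The share of higher members was thus near that of all genes. The groups did not overlap for 5 of the 7, where 51.9% of all tested genes had groups that did not overlap. The median of all tested genes was itself 0.19 on the log2 scale as deposited and -0.01 after median-of-ratios scaling, with which 15.4% of all genes were higher and 16.9% lower. The 5 member calls stood, in their direction, under the deposited scale and 4 other scalings. Values relative to that median are given below beside each change. With 3 against 3 libraries an exact permutation test of 1 gene cannot go below p = 0.1, so the calls rest on the variance shared across genes.

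**Figure D1:**
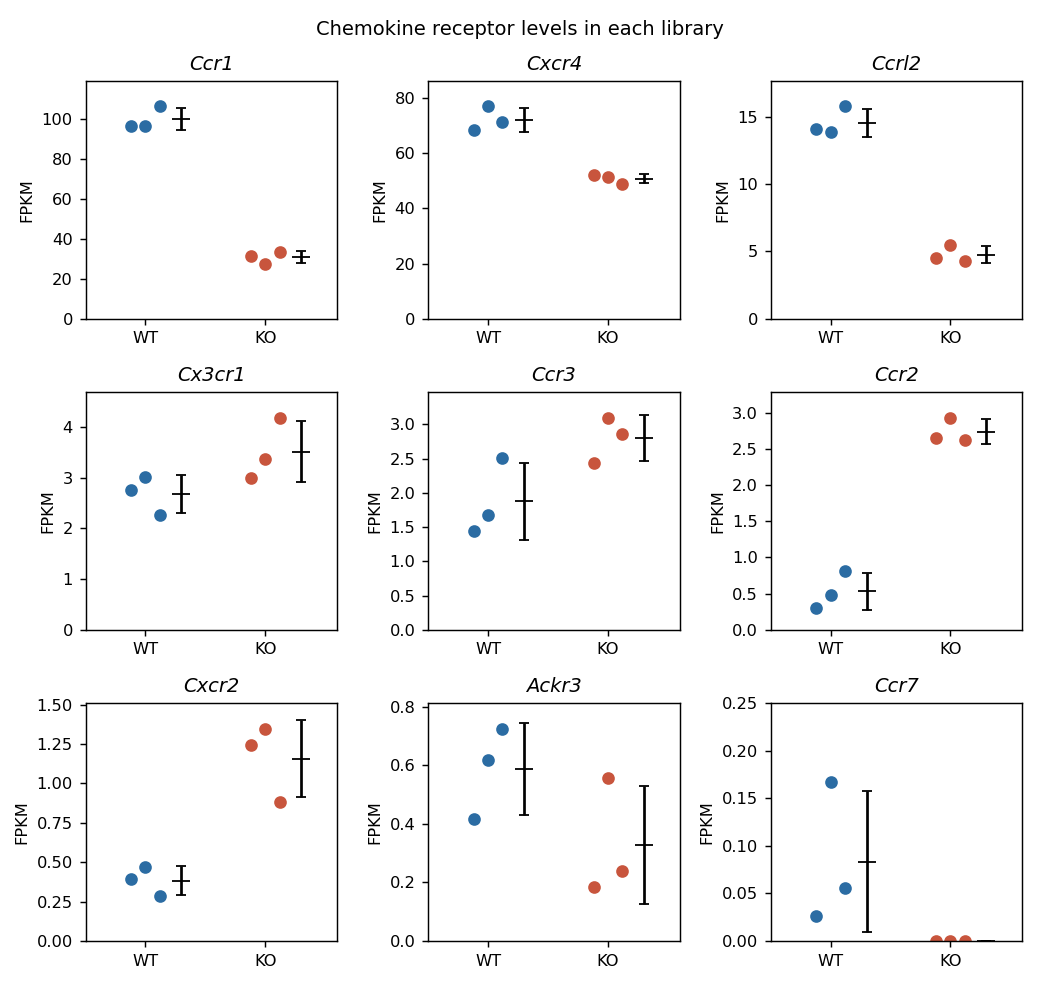
Level of each member in FPKM (vertical axis, from 0, own scale per panel) in the 3 libraries labelled WT and the 3 labelled KO; points are libraries and the bars give mean ± SD. The 3 KO points of Ccr1, Cxcr4 and Ccrl2 lie below all WT points, those of Ccr2 and Cxcr2 lie above them, and the groups of Cx3cr1, Ccr3 and Ackr3 overlap.

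*Ccr1* (ENSMUSG00000025804, chromosome 9 from 123962124 to 123968692, minus strand, GENCODE M21 on GRCm38 here and below), a receptor for CCL3, CCL5, CCL6 and CCL9, was the highest member in the libraries labelled WT. It had 96.7, 96.6 and 106 FPKM in WT replicates 1, 2 and 3 and 31.4, 27.6 and 33.2 FPKM in KO replicates 1, 2 and 3. Every KO library lay at less than every WT library, with no overlap. The mean fell from 99.9 ± 5.51 to 30.7 ± 2.89 FPKM (SD, n = 3 each), which is a log2 change of -1.69 (SE 0.097, 95% interval -1.92 to -1.46, adjusted p = 3.85e-05 from limma), or 3.22-fold lower on the FPKM + 0.5 scale. Relative to the median of all genes the log2 change was -1.88.

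*Ccr2* (ENSMUSG00000049103, chromosome 9 from 124101950 to 124113557, plus strand), the receptor for CCL2, CCL7 and CCL12 on inflammatory monocytes, was low and moved the other way. It had 0.306, 0.476 and 0.808 FPKM in WT replicates 1, 2 and 3 and 2.66, 2.93 and 2.62 FPKM in KO replicates 1, 2 and 3. The KO libraries lay close together and the highest WT library was well under the lowest of them. The mean rose from 0.530 ± 0.256 to 2.74 ± 0.171 FPKM (SD, n = 3 each), which is a log2 change of 1.68 (SE 0.19, 95% interval 1.22 to 2.13, adjusted p = 0.000773 from limma) and 1.49 relative to the median of all genes. Since the WT level is near the added 0.5, the 3.20-fold rise on the FPKM + 0.5 scale understates the ratio of the FPKM values.

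Monocyte markers were described beside *Ccr2*. Of 11 listed, 9 were tested, with 5 higher, 3 lower and 1 not called, and the summed level was 60.0 to 61.8 FPKM in WT-labelled libraries and 98.9 to 100.5 FPKM in KO-labelled ones. *Ly6c2*, a surface antigen of inflammatory monocytes, rose from 0.478 ± 0.176 to 1.47 ± 0.209 FPKM (SD, n = 3 each), and *F13a1*, the coagulation factor XIII A chain, rose from 6.39 ± 0.328 to 36.7 ± 0.865 FPKM. *Spn* rose from 0.718 ± 0.0455 to 1.34 ± 0.199 FPKM, and *Ly6c1* rose by 0.61 on the log2 scale. These 2 were called in 4 and 3 of the 5 scalings. *Treml4*, a marker of non-classical monocytes, fell from 3.93 ± 0.422 to 0.788 ± 0.238 FPKM, and *Nr4a1* fell from 8.65 ± 0.278 to 5.15 ± 0.293 FPKM. *Plac8* fell as well, from 6.58 ± 1.47 to 4.09 ± 0.596 FPKM, and *Vcan*, at 9.79 ± 2.72 and 9.25 ± 1.11 FPKM, was not called. The rise of the summed level was carried by *F13a1* and by *Chil3*, which rose from 23.2 ± 2.70 to 39.0 ± 1.20 FPKM. *Chil3* is also on the list of neutrophil markers. Their part in the *Ccr2* result was not tested.

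*Ccr3* (ENSMUSG00000035448, chromosome 9 from 124021972 to 124031689, plus strand), the eotaxin receptor of eosinophils, did not pass the test. It had 1.44, 1.68 and 2.50 FPKM in WT replicates 1, 2 and 3 and 2.43, 3.10 and 2.86 FPKM in KO replicates 1, 2 and 3. WT replicate 3 lay above the lowest KO library, so the groups overlapped. The means were 1.87 ± 0.559 and 2.80 ± 0.337 FPKM (SD, n = 3 each), with a log2 difference of 0.49 (95% interval 0.05 to 0.93, adjusted p = 0.0764 from limma). Without WT replicate 3 the difference was 0.68 with an adjusted p of 0.00951 from limma, so the call changed without this library. With all 6 libraries and the replicate number as a block, the adjusted p was 0.0452 from limma. Of 11 eosinophil and basophil markers, *Epx*, *Fcer1a* and *Ms4a2* were listed at 0 in all 6 libraries and 3 were tested, of which *Mcpt8*, a basophil protease, was lower and the others were not called. Their summed level was 17.6 to 28.4 FPKM in WT-labelled libraries and 8.56 to 10.4 FPKM in KO-labelled ones. Most of this sum was *Mcpt8*, at 19.9 ± 5.98 and 6.91 ± 0.579 FPKM (SD, n = 3 each).

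*Ccr7* (ENSMUSG00000037944, chromosome 11 from 99144196 to 99155077, minus strand), the receptor that takes dendritic cells and lymphocytes to lymph nodes, was close to the detection limit. It had 0.0266, 0.167 and 0.0561 FPKM in WT replicates 1, 2 and 3 and was listed at 0 in all 3 libraries labelled KO. The groups did not overlap, but the gene was not tested, and no fold change is given against libraries listed at 0. Of 12 dendritic cell markers 4 were tested, 3 higher and 1 lower, and *Flt3* was listed at 0 throughout. Their summed level was 26.4 to 36.7 FPKM in WT-labelled libraries and 52.6 to 82.9 FPKM in KO-labelled ones, most of it *Fscn1*, an actin-bundling protein.

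*Cxcr4* (ENSMUSG00000045382, chromosome 1 from 128588199 to 128592293, minus strand), the signalling receptor for CXCL12, had 68.3, 77.0 and 71.3 FPKM in WT replicates 1, 2 and 3 and 52.0, 51.3 and 49.0 FPKM in KO replicates 1, 2 and 3. The groups did not overlap and the spread within each was small. The mean fell from 72.2 ± 4.39 to 50.8 ± 1.58 FPKM (SD, n = 3 each), which is a log2 change of -0.50 (SE 0.080, 95% interval -0.69 to -0.31, adjusted p = 0.00331 from limma), or 1.42-fold lower. The change was -0.69 relative to the median of all genes and -0.73 with median-of-ratios scaling, and it was the smallest of the 5 called member changes on the deposited scale.

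*Cxcr2* (ENSMUSG00000026180, chromosome 1 from 74153989 to 74161246, plus strand), the receptor with which neutrophils follow CXCL1, CXCL2 and CXCL5, was low and rose. It had 0.393, 0.467 and 0.286 FPKM in WT replicates 1, 2 and 3 and 1.24, 1.35 and 0.882 FPKM in KO replicates 1, 2 and 3. The lowest KO library was above the highest WT library. The mean rose from 0.382 ± 0.0911 to 1.16 ± 0.244 FPKM (SD, n = 3 each), which is a log2 change of 0.90 (SE 0.17, 95% interval 0.50 to 1.31, adjusted p = 0.00634 from limma) and 0.72 relative to the median of all genes. Where an average of 1 FPKM was required, it was not tested.

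Neutrophil markers moved in the same direction as *Cxcr2*. Of 25 listed, 18 were tested, 16 higher and 1 lower, and the summed level was 226 to 291 FPKM in WT-labelled libraries and 609 to 625 FPKM in KO-labelled ones. *S100a9*, a subunit of calprotectin, rose from 90.5 ± 19.9 to 234 ± 11.6 FPKM and *Ngp*, a granule protein, from 12.9 ± 2.29 to 107 ± 2.80 FPKM (SD, n = 3 each), while the collagenase *Mmp8* fell from 21.9 ± 2.51 to 9.80 ± 0.488 FPKM. *Ly6g*, the antigen of the sort, was listed at 0 in WT-labelled libraries and had 0.403 to 0.660 FPKM in KO-labelled ones, and *Cxcr1*, the other receptor of this pair on neutrophils, did not exceed 0.0728 FPKM in any library. Their part in the *Cxcr2* and *Ccr2* results was not tested.

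*Cx3cr1* (ENSMUSG00000052336, chromosome 9 from 119901616 to 120069879, minus strand), the fractalkine receptor of microglia and patrolling monocytes, did not pass the test. It had 2.76, 3.01 and 2.27 FPKM in WT replicates 1, 2 and 3 and 3.00, 3.36 and 4.19 FPKM in KO replicates 1, 2 and 3. WT replicate 2 was just above KO replicate 1, so the groups overlapped. The means were 2.68 ± 0.378 and 3.52 ± 0.608 FPKM (SD, n = 3 each), with a log2 difference of 0.33 (95% interval -0.03 to 0.69, adjusted p = 0.127 from limma), and 0.14 relative to the median of all genes. Its annotated span overlaps 9 other genes on both strands, among them *Wdr48*, which was higher (log2 fold change 0.50, adjusted p = 0.0184 from limma), and *Csrnp1*, which was lower (-1.35, adjusted p = 0.0263 from limma). How the counting shared reads among them is not given in the sources used here, so the *Cx3cr1* level is uncertain.

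Of 12 microglia markers 10 were tested, 6 higher and 4 not called, with a summed level of 2050 to 2538 FPKM in WT-labelled libraries and 3008 to 3374 FPKM in KO-labelled ones. Most of this sum was *C1qa*, *C1qb* and *C1qc*, complement genes that macrophages also express, with means of 477, 1198 and 419 FPKM in WT-labelled libraries and 806, 1458 and 614 FPKM in KO-labelled ones. *Tmem119*, a marker of microglia, had 11 ± 1.13 and 8.73 ± 0.741 FPKM (SD, n = 3 each), lower without overlap but not called (adjusted p = 0.0607 from limma). It was called lower in 3 of the 5 scalings. The microglia markers *P2ry12* and *P2ry13* rose from 0.217 ± 0.0423 to 5.40 ± 2.52 FPKM and from 0.746 ± 0.255 to 5.17 ± 0.331 FPKM. *Gpr34*, a lysophospholipid receptor of microglia, was at or under 0.0797 FPKM in WT-labelled libraries and at 9.02 to 11.8 FPKM in KO-labelled ones. *Sall1*, which defines microglia, did not exceed 0.0415 FPKM in any library. Their part in the *Cx3cr1* values was not tested.

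The atypical members came next. *Ccrl2* (ENSMUSG00000043953, chromosome 9 from 111054486 to 111057519, minus strand), which binds chemerin and presents it to other receptors, had 14.1, 13.8 and 15.8 FPKM in WT replicates 1, 2 and 3 and 4.52, 5.45 and 4.25 FPKM in KO replicates 1, 2 and 3. The groups lay far apart. The mean fell from 14.6 ± 1.04 to 4.74 ± 0.630 FPKM (SD, n = 3 each), which is a log2 change of -1.53 (SE 0.12, 95% interval -1.80 to -1.25, adjusted p = 0.000135 from limma), or 2.88-fold lower, and -1.72 relative to the median of all genes. *Ltf*, which encodes the neutrophil granule protein lactoferrin, lies 11.7 kb from *Ccrl2* and went the other way, from 3.92 ± 0.274 to 37.0 ± 2.93 FPKM (SD, n = 3 each).

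*Ackr3* (ENSMUSG00000044337, chromosome 1 from 90203980 to 90216751, plus strand), which takes up CXCL12 and lowers it around the cell, was under the filter. It had 0.415, 0.619 and 0.724 FPKM in WT replicates 1, 2 and 3 and 0.186, 0.556 and 0.240 FPKM in KO replicates 1, 2 and 3. KO replicate 2 lay inside the range of the libraries labelled WT. In a fit without the filter the log2 differences were -0.41 for *Ackr3* (adjusted p = 0.290 from limma) and -0.22 for *Ccr7* (adjusted p = 0.191 from limma).

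The order of the members by FPKM differed between the groups. In the libraries labelled WT it ran *Ccr1*, *Cxcr4*, *Ccrl2*, *Cx3cr1*, *Ccr3*, *Ackr3*, *Ccr2*, *Cxcr2* and *Ccr7*. There the ranges of *Cx3cr1* and *Ccr3* overlapped, as did those of every pair of *Ackr3*, *Ccr2* and *Cxcr2*. In the libraries labelled KO it ran *Cxcr4*, *Ccr1*, *Ccrl2*, *Cx3cr1*, *Ccr3*, *Ccr2*, *Cxcr2*, *Ackr3* and *Ccr7*, where the ranges of *Cx3cr1* and *Ccr3* and of *Ccr3* and *Ccr2* overlapped. *Ccr1* was thus above *Cxcr4* in all 3 libraries labelled WT, at 1.26 to 1.49 times its FPKM, and below it in all 3 labelled KO, at 0.537 to 0.678 times. The ratio of *Ccr1* to *Ccr2* FPKM was 217 ± 93.2 in WT-labelled libraries and 11.3 ± 1.70 in KO-labelled ones (SD, n = 3 each). A scaling factor per library leaves these ratios as they are. The 9 levels summed to 184 to 200 FPKM in WT-labelled libraries and 95.6 to 97.5 FPKM in KO-labelled ones, and *Ccr1* and *Cxcr4* made up 89.3% ± 0.415 and 84.2% ± 1.58 of the sum (SD, n = 3 each).

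**Figure D2:**
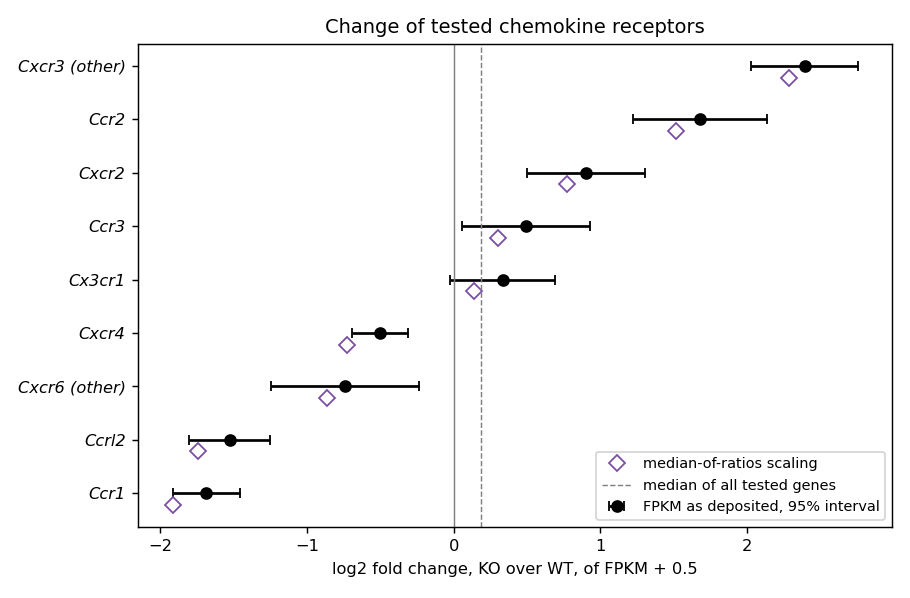
Log2 fold change (horizontal axis, libraries labelled KO over WT, on the FPKM + 0.5 scale) of the 7 tested members and of Cxcr3 and Cxcr6; filled points with bars are the deposited scale with 95% intervals, open diamonds median-of-ratios scaling, and the dashed line is the median of all tested genes, 0.19. Ccr1, Ccrl2 and Cxcr4 lie left of 0 and Ccr2 and Cxcr2 right of it on both scales.

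Among the other chemokine receptors, *Cxcr3* and *Cxcr6* reached the filter. *Cxcr3*, the receptor for interferon-induced CXC chemokines on T and NK cells, was listed at 0, 0 and 0.0641 FPKM in WT replicates 1, 2 and 3 and at 2.49, 1.85 and 2.40 FPKM in KO replicates 1, 2 and 3. It was called higher (adjusted p = 6.46e-05 from limma), and since its WT level is at or near 0 its log2 fold change moved with the pseudocount, from 1.66 to 4.30 over the alternatives. *Cxcr6*, the CXCL16 receptor, fell from 0.954 ± 0.200 to 0.379 ± 0.197 FPKM (SD, n = 3 each; -0.74, adjusted p = 0.0326 from limma), and this call was lost with TPM (0.0515), without the filter (0.0774) and without WT replicate 2 (0.0977), WT replicate 3 (0.0569), KO replicate 1 (0.0742) or KO replicate 3 (0.072).

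Of 15 T, B and NK cell markers, considered beside *Cxcr3*, 2 were tested and both were higher, namely *Cd4* and *Cd79b*. The summed level was 2.78 to 3.62 FPKM in WT-labelled libraries and 9.90 to 11.3 FPKM in KO-labelled ones. *Cd3d*, a subunit of the T cell receptor complex, was listed at 0 throughout. Their part in the *Cxcr3* result was not tested.

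The starts of *Ccr1*, *Ccr3* and *Ccr2* stand within 133 kb, with *Cxcr6* on the other side of *Ccr1*. Of the 12 protein-coding genes in the map of the cluster, 7 were tested, with 2 higher, 2 lower and 3 not called. *Ccr1* fell, *Ccr3* was not called and *Ccr2*, the next gene after *Ccr3*, rose, so direction was not shared along the cluster. *Ccr1l1*, between *Ccr1* and *Ccr3*, was under the filter. *Fyco1* and *Lztfl1*, between and beyond *Ccr1* and *Cxcr6*, had log2 differences of -0.02 and 0.05 and did not pass the test.

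**Figure D3:**
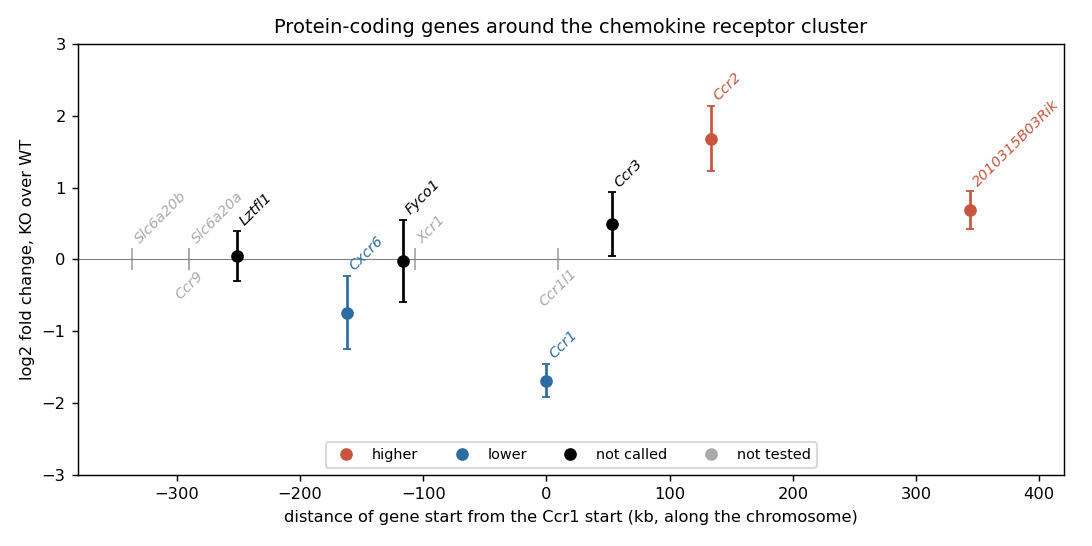
Log2 fold change (vertical axis, libraries labelled KO over WT, with 95% intervals) of protein-coding genes against the distance of their start from the Ccr1 start in kb (horizontal axis); colours give the call and grey ticks are untested genes. Ccr1 at -1.69 and Ccr2 at 1.68 mark the lowest and highest points, with Ccr3 between them not called.

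Most tested ligands of the members were lower in the libraries labelled KO. Of 24 listed ligands 16 were tested, and 13 were lower, 2 higher and 1 not called, with a median log2 fold change of -1.70, against a median of 0.19 and shares of 10.5% lower and 27.1% higher over all tested genes. Among the CCR1 ligands, *Ccl6* fell from 331 ± 23.2 to 125 ± 1.03 FPKM, *Ccl9* from 167 ± 16.3 to 71.2 ± 5.31 FPKM and *Ccl5* from 70.1 ± 11.1 to 1.11 ± 0.459 FPKM (SD, n = 3 each), while *Ccl3* had 26.7 ± 5.42 and 23.8 ± 1.01 FPKM and was not called. Among the CCR2 ligands, *Ccl2* fell from 119 ± 22 to 23.3 ± 2.56 FPKM, *Ccl7* from 71.8 ± 17.0 to 26.1 ± 2.30 FPKM and *Ccl12* from 19.3 ± 10.1 to 4.19 ± 0.676 FPKM, opposite to their receptor. Likewise 5 ligands that act through CXCR2 (*Cxcl1*, *Cxcl2*, *Cxcl3*, *Cxcl5* and *Ppbp*) fell, with log2 fold changes of -1.24 for *Ppbp* to -5.92 for *Cxcl3*, while *Cxcr2* rose. *Cxcl3* was listed at 0, 0 and 0.0446 FPKM in KO replicates 1, 2 and 3, so its fold change rests on the pseudocount.

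*Cxcl12*, the ligand of *Cxcr4* and *Ackr3*, had 3.14, 2.76 and 2.33 FPKM in WT replicates 1, 2 and 3 and 15.8, 14.8 and 13 FPKM in KO replicates 1, 2 and 3. It rose by 2.22 on the log2 scale (SE 0.13, adjusted p = 4.06e-05 from limma), and the ratio of *Cxcr4* to *Cxcl12* FPKM was 26.8 ± 4.56 in WT-labelled libraries and 3.51 ± 0.246 in KO-labelled ones (SD, n = 3 each). Of 12 spinal cord and stroma markers 6 were tested, 1 higher, 2 lower and 3 not called, and *Aqp4*, *Snap25* and *Mog* were listed at 0 throughout. Their summed level was 262 to 404 FPKM in WT-labelled libraries and 324 to 381 FPKM in KO-labelled ones. Most of this sum was the collagen gene *Col1a1*, at 306 ± 69.6 and 325 ± 28.4 FPKM (SD, n = 3 each), which was not called. The 2 lower markers were *Pdgfrb*, from 19.4 ± 5.22 to 11.7 ± 1.64 FPKM, and *Dcn*, from 2.82 ± 0.574 to 1.11 ± 0.105 FPKM. RNA of *Col1a1*, *Pdgfrb* and *Dcn* was thus present in both groups. Which cells gave it, and its part in the *Cxcl12* result, was not tested. *Mif*, a further ligand of CXCR2 and CXCR4, fell from 342 ± 49.4 to 217 ± 5.90 FPKM, and *Cx3cl1* had 4.09 ± 0.379 and 5.45 ± 0.166 FPKM (SD, n = 3 each), a call (adjusted p = 0.0240 from limma) that was lost in all 4 other scalings. *Rarres2*, which encodes chemerin, was under the filter.

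**Figure D4:**
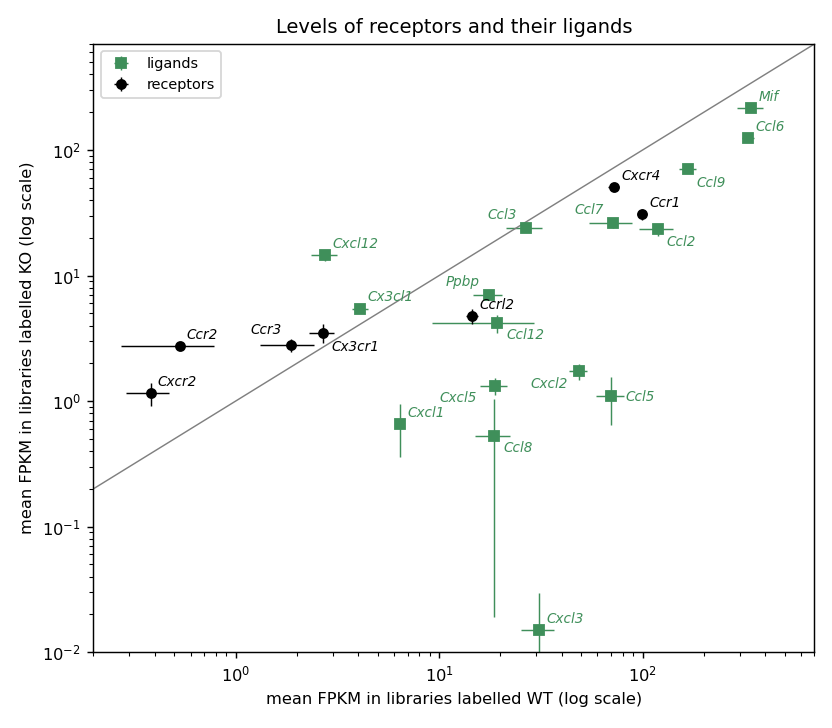
Mean FPKM in the libraries labelled KO (vertical axis, log scale) against the mean in those labelled WT (horizontal axis, log scale) for the 7 tested members (circles) and their 16 tested ligands (squares); bars are ± SD (n = 3), cut short where they would reach 0, and the line marks equal levels. Ccr2, Cxcr2, Cxcl12 and Cx3cl1 lie above the line, and Ccr1, Cxcr4, Ccrl2 and 13 ligands lie below it, by a called change on the deposited scale.

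Downstream of the receptors most called genes were higher. Of 40 genes for G proteins, receptor kinases, arrestins, RGS proteins and chemotaxis effectors, 24 were higher, 1 was lower and 15 were not called, with a median log2 fold change of 0.50, against 0.19 over all tested genes, of which 27.1% were higher and 10.5% lower. With median-of-ratios scaling 18 of the 40 were higher and 2 lower, where 15.4% of all tested genes were higher and 16.9% lower. In all 5 scalings 18 were higher and 1 lower. *Gnai2*, the inhibitory G protein subunit that these receptors use, rose from 155 ± 2.32 to 230 ± 13.2 FPKM, and *Rgs18* and *Rgs10*, which end G protein signals, rose from 0.998 ± 0.251 to 9.41 ± 1.20 FPKM and from 16.0 ± 4.50 to 57.3 ± 5.13 FPKM (SD, n = 3 each). *Rgs16* was the lower gene, from 24.4 ± 0.687 to 14.3 ± 0.614 FPKM. *Grk2* and *Arrb2*, which desensitise the receptors, rose from 44.3 ± 3.29 to 66.5 ± 2.32 FPKM and from 40.5 ± 2.15 to 66.1 ± 5.26 FPKM. *Dock2*, the Rac activator of leukocyte migration, rose from 5.82 ± 1.41 to 23.2 ± 3.09 FPKM, its partner *Elmo1* from 2.32 ± 0.569 to 6.52 ± 0.674 FPKM and *Pik3cg*, the G protein-activated PI3 kinase, from 4.81 ± 0.723 to 12.7 ± 0.656 FPKM. The 15 genes not called included *Gnai3* (47.5 ± 2.59 and 49.6 ± 3.86 FPKM) and *Vav1* (40.6 ± 2.46 and 41.5 ± 0.399 FPKM). *Rac1*, with 86.2 ± 9.41 and 106 ± 7.06 FPKM, was also among them but was called in 2 of the 5 scalings.

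The genes whose levels followed each tested member most closely were found by the root-mean-square difference between log2(FPKM + 0.5) profiles, each centred on its own mean over the 6 libraries, among genes that averaged 1 FPKM or more. For *Ccr1* they were *Dck* (0.0455) and *Plaur* (0.0550), and *Plaur* also lay at nearly the level of *Ccr1*, with 92.6, 91.9 and 102 FPKM in WT replicates 1, 2 and 3 and 27.9, 27.7 and 30.5 FPKM in KO replicates 1, 2 and 3. For *Ccrl2* they were *Oas1b* (0.0921) and *Parp9* (0.109), and for *Cxcr4* *Morc3* (0.0325) and *Map2k4* (0.0462). For *Ccr2* they were *Camp* (0.0899) and *Acyp1* (0.0952), and for *Cxcr2* *Prkd2* (0.0310) and *Cnr2* (0.0664). For *Ccr3* they were *Pgls* (0.0447) and *Lat* (0.0558), and for *Cx3cr1* *Slc10a3* (0.0333) and *Fbxl6* (0.0588). The likeness rests on 6 libraries in 2 groups.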

How the data were processed

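RNA-seq values of 6 libraries were analysed, 3 per group, grouped by the labels. The authors deposited FPKM for each gene in each library. The submitters' processing notes name fastp 0.17.1, HISAT2 2.1.0, R 3.4.3 and DESeq2 1.18.1, and the quantification tool, annotation, genome build and strand setting are not given in the sources used here. The labels and the methods name different library kits and sequencers. Of 55335 identifiers, 55154 (99.7%) were given a symbol, from GENCODE M21 or, where it had none, from a further list of gene names. Positions came from GENCODE M21, and promoters came from RefSeq (GRCm38.p6), with 8 of 9 members matched.

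The authors tested counts with DESeq2, and these values are not counts. Low FPKM values times transcript length gave the implied depth, but only 39.7% to 43.9% lay within 0.1 of a whole multiple of the step (20% by chance), so whole reads were not recovered. An FPKM of 0 can be a failed estimate. Values were tested as log2(FPKM + 0.5), where the pseudocount shrinks changes of low genes, with limma 3.58.1 in R 4.3.3 (eBayes with trend, two-sided, no covariates) over the 13367 genes that averaged 0.5 FPKM or more, with Benjamini-Hochberg adjustment. Other steps used Python 3.11.15, pandas 2.3.3, numpy 2.4.6 and matplotlib 3.10.9.

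Alternatives were pseudocounts of 0.1 and 1, a filter at 1 FPKM or no filter, 4 scalings, robust variance, the replicate block and each library left out. A further listed gene is not reported here, but the counts of called other receptors include it. The members and lists were chosen with earlier results of these data known. Named genes are the members, listed genes that passed the filter (markers and undetected genes also under it), the 2 closest profiles per tested member and genes within 300 kb of a member. The listed genes named were picked for role and size of change, and genes overlapping a member for their position.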

Additional observations from a re-analysis of the deposited data

How the results depend on the processing

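None of the alternatives run reversed a member's direction. *Ccr1* lay between -1.91 and -1.61 on the log2 scale, *Ccrl2* between -1.74 and -1.44, *Cxcr4* between -0.73 and -0.46, *Ccr2* between 1.30 and 2.25 and *Cxcr2* between 0.64 and 1.38, each called wherever it was tested, with adjusted p from limma of at most 0.0307. With a mean of at least 1 FPKM 4 members were called, since *Cxcr2* was then not tested. Leaving out each library in turn gave 5 to 6 called members, 14 to 15 called ligands, 18 to 30 called signalling genes, 1 to 3 called other receptors and 3479 to 5966 called genes in all, the most called genes without WT replicate 3. Rescaling to TPM left 1 other receptor called in place of 3, *Cxcr3*. Of the 5027 calls over all genes 72.0% were higher as deposited, and 47.7% of 4316 with median-of-ratios, 63.6% of 4528 with upper-quartile, 72.6% of 4786 with TPM and 55.7% of 4354 with quantile scaling; among members it was 2 higher and 3 lower in each.

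No source says that a replicate number marks a shared batch or day, and same-numbered libraries correlated at 0.116, 0.036 and 0.264 in their deviations, so the numbers were not taken to pair the libraries. Only replicate 3 correlated best with its own number. With the replicate block 5934 genes and 6 members were called, the added member being *Ccr3* (adjusted p = 0.0452 from limma), with 3 other receptors, 15 ligands and 31 signalling genes. Depth limits *Ccr7*, *Ackr3*, *Cxcr2* and the WT levels of *Ccr2* and *Cxcr3*, where few fragments lie behind a value.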

Other observations

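The 12 chemokine receptors outside the 9 members that lay under the filter were at less than 0.5 FPKM in every library. *Ackr1*, *Ccr6* and *Ccr8* were listed at 0 in all 6. *Xcr1*, the receptor of cross-presenting dendritic cells, had 0.217, 0.218 and 0.376 FPKM in WT replicates 1, 2 and 3 and 0.0331, 0.0678 and 0.126 FPKM in KO replicates 1, 2 and 3, without overlap. *Ackr4*, a scavenger of CCL19 and CCL21, went the other way, with at most 0.0332 FPKM in the libraries labelled WT and 0.106 to 0.227 FPKM in those labelled KO. *Ccr1l1*, a *Ccr1* paralog 9.72 kb from the *Ccr1* start, had 0.483, 0 and 0.326 FPKM in KO replicates 1, 2 and 3, so the libraries labelled KO disagreed among themselves. These genes were not tested.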
